A study of Mus musculus with 8 samples.

Results

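The nerve-associated genes described here are 8 genes of Schwann cells and nerves, Tnr, Sox10, S100b, Ngfr, Gfap, Cdh19, Mbp and Ncam1, followed through the pancreas of lean and obese mice. The genes were chosen by symbol, with earlier results of these data known. Tnr was selected on its own measured values, being among the genes that differ most between ob/ob and high-fat diet mice. Of the 8 genes, 6 are among the 15047 gene symbols analysed, and Sox10 and Gfap are not. RNA-Seq was made from total RNA of the pancreas of 8 male mice. LFD mice (n = 3) and HFD mice (n = 3) were C57BL/6 WT animals that received a low-fat or a high-fat diet for 10 weeks from 4 weeks of age, and 60% of the energy of the HFD was fat. The ob/ob mice (n = 2) were C57BL/6J animals that lack leptin, the satiety hormone of fat tissue, and were kept on a standard diet from 4 weeks of age. Genotype and diet differ together between ob/ob and LFD mice, so the effects of genotype, background colony and chow cannot be told apart. The text of the study on these transcriptomes, though not the sample labels, states that the mice carried mT organoids in the pancreas, which come from pancreatic tumours of mice with Pdx1-Cre, so each library may hold RNA of transplanted tumour cells, host pancreas and nerve. In such bulk tissue, fewer cells of a type and less RNA per cell cannot be told apart. Values are rlog values, a log2 scale corrected for library size on which differences of weakly expressed genes are shrunk. How deeply each library was sequenced is unknown, so the errors given rest on the spread between mice. Each SD is that of 1 group, and each SE is from a model that pools the spread of the 3 groups. A difference of 1 is 1 unit of log2, and rlog values are not per transcript length, so levels are compared between mice and not between genes.

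Schwann cells are the glia of peripheral nerves. They wrap axons, either in myelin or as non-myelinating cells that bundle thin axons, and in the pancreas they also form a sheath around the islets. After injury they can leave the myelinating state, lower their myelin genes and raise Ngfr, Gfap and adhesion molecules, and nerves of pancreatic tumours are known as a route along which cancer cells spread. Sox10 is the transcription factor that sets Schwann cell identity, S100b is a calcium-binding protein of glia, Cdh19 is a cadherin of the neural crest lineage, Ngfr is the p75 receptor of neurotrophins, Gfap is a filament protein of non-myelinating glia, Mbp is a structural protein of compact myelin, Ncam1 is an adhesion molecule of neurons, glia and endocrine cells, and Tnr encodes tenascin-R, an extracellular matrix protein best known from the nervous system.

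The label of the gene group was checked against Schwann cell markers. Of a list of 31 Schwann lineage genes, 18 were measured, and the defining factors Sox10 and Foxd3 were not among them. Of 26 myelin genes, 20 were measured. Of 37 genes of neurons and axons, 13 were measured, and Th and Prph were not among them. Many of the genes that remain are also used by other cells, such as Zeb2, the most abundant of the Schwann lineage list, which macrophages and fibroblasts express, and Erbb3, a neuregulin receptor of epithelia. Prx, a protein of myelinating Schwann cells, was lowest in HFD replicate 1 with 3.42 and highest in ob/ob replicate 2, and its groups overlapped. The values below are therefore given for the genes by name and not as a measure of Schwann cells.

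The 6 measured genes did not move as a group. Tnr was highest in ob/ob mice, S100b was highest and Cdh19 lowest in HFD mice, and Ncam1 was higher in both obese groups. Ngfr was high in a single ob/ob mouse, and Mbp overlapped in every comparison and was lowest in ob/ob replicate 2. With limma across all 15047 genes, no gene had an adjusted p under 0.05 between HFD and LFD (0.0%), between ob/ob and LFD (0.0%), between ob/ob and HFD (0.0%) or between LFD and the mean of both obese groups (0.0%), so none of the 6 genes passed either. The numbers of genes with an unadjusted p under 0.05 were 2985, 2831, 588 and 3825 in these comparisons. When HFD replicate 1 was left out, 2812 genes passed between HFD and LFD, 89 between ob/ob and LFD and 3326 between LFD and both obese groups, and of the 5 genes other than Tnr, Ncam1 alone passed, in the last. Both comparisons with LFD share the same 3 LFD mice.

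**Figure D1:**
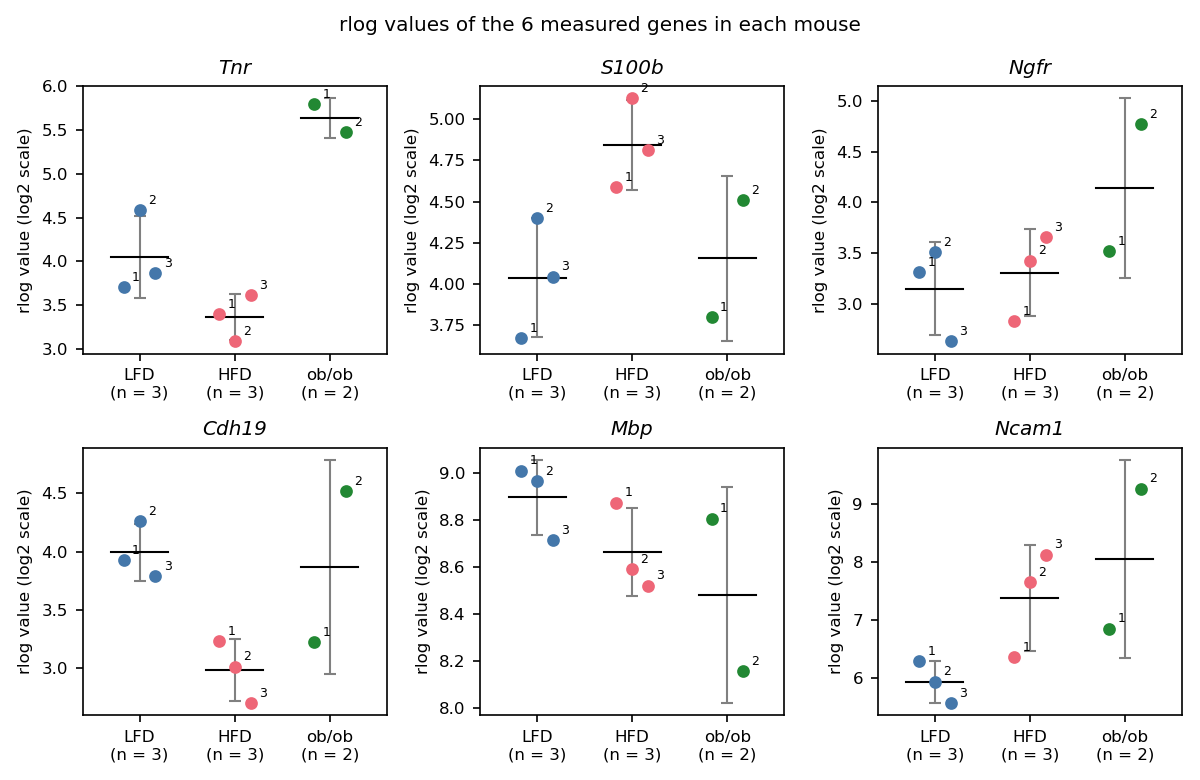
rlog values (log2 scale, y axis) of the 6 measured genes in LFD, HFD and ob/ob mice (x axis). Points are mice numbered by replicate, black lines are group means and grey bars are ± SD. Both ob/ob mice lie above all others for Tnr, the HFD mice lie above all others for S100b, and the spread of the ob/ob mice is wide for Ngfr, Cdh19 and Ncam1.

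Tnr lies on chr1:159523769-159931729 (GRCm38, plus strand, Gencode M21). Its rlog values were 3.71, 4.58 and 3.87 in LFD, 3.40, 3.09 and 3.61 in HFD, and 5.80 and 5.48 in ob/ob mice, given here and below in the order of the replicate numbers. Both ob/ob mice lay above every other mouse and every HFD mouse lay below every LFD mouse. LFD mice had a mean of 4.05 ± 0.47 (SD, n = 3), HFD mice of 3.37 ± 0.27 (SD, n = 3) and ob/ob mice of 5.64 ± 0.23 (SD, n = 2). The difference between ob/ob and HFD was 2.27 (SE 0.35), the second largest in the positive direction of all genes, between H19 with 2.61 and Rnu3b1 with 2.07. This contrast chose the gene, so its difference is a description and no test is given. Against LFD, Tnr differed by -0.69 (SE 0.32) in HFD and by 1.59 (SE 0.35) in ob/ob mice, again without a test, since these values share the mice that chose it. The former was -0.42 without LFD replicate 2. The mean rlog value of Tnr is at percentile 14.6 of all genes, where the rlog transformation shrinks differences.

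The sequence before the transcription start is shown for Tnr, the gene chosen for its pattern, and for S100b, the glial gene that was highest in HFD mice, as their patterns over the mice differ. Both are the 250 bases before the start in RefSeq (GRCm38.p6, plus strand, written 5′ to 3′), at chr1:159523519-159523768 for Tnr and chr10:76253586-76253835 for S100b. Capitals mark the hexamers ACAAAG and ACAATG, the core letters bound by SOX proteins, searched on both strands.
Tnr: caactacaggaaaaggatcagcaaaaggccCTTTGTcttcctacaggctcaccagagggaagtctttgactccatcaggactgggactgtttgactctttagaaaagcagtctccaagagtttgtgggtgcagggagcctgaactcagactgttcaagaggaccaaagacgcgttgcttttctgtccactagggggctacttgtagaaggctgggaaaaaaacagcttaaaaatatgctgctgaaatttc
S100b: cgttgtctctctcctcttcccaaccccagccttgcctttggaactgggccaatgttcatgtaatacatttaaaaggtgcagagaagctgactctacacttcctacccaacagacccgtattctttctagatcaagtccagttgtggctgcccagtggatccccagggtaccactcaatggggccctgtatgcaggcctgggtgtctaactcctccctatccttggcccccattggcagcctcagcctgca
The Tnr window holds 1 match, ACAAAG on the opposite strand, whose first base lies 220 bases before the start, and the S100b window holds none. Such a match is present in 25.2% of 32851 RefSeq promoters of this length. Of the 8 genes, 4 have a sequence in the table used, and Tnr is the only one of the 4 with a match. The match is a description of letters and not evidence of binding.

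Tenascins and the hyaluronan-binding proteoglycans, with which tenascin-R forms nets around neurons, were followed with a list of 12 genes that includes Tnr, of which 8 were measured. Tnc, the tenascin of wound and tumour stroma, had a mean rlog value of 8.48 ± 0.86 (SD, n = 3) in LFD mice, while HFD mice had 10.35 ± 1.07 (SD, n = 3) and ob/ob mice 10.53 ± 1.14 (SD, n = 2). All 5 obese mice lay above the LFD mice for Tnc, whereas Tnr was lower in HFD and higher in ob/ob mice. Tnc differed from LFD by 1.86 in HFD (SE 0.64, adjusted p = 0.203) and by 2.05 in ob/ob mice (SE 0.72, adjusted p = 0.223). Vcan, a proteoglycan of loose connective tissue, differed by 1.96 (SE 0.25, adjusted p = 0.124) and 2.03 (SE 0.28, adjusted p = 0.135). Hapln4, a link protein of perineuronal nets, differed in the other direction, by -1.63 (SE 0.55, adjusted p = 0.202) and -1.40 (SE 0.62, adjusted p = 0.266). Tnxb, the tenascin of mature connective tissue, lay at 6.80 in ob/ob replicate 2 and between 8.06 and 8.94 in the other mice. Tnn was not measured.

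S100b lies on chr10:76253853-76261159 (GRCm38, plus strand, Gencode M21). Its rlog values were 3.67, 4.40 and 4.04 in LFD, 4.59, 5.13 and 4.81 in HFD, and 3.80 and 4.51 in ob/ob mice. Each HFD mouse lay above every LFD and every ob/ob mouse, and the LFD and ob/ob mice overlapped. The difference from LFD was 0.80 in HFD (SE 0.32, adjusted p = 0.228) and 0.12 in ob/ob mice (SE 0.36, adjusted p = 0.873), and neither passed. The latter was 0.47 without ob/ob replicate 1 and turned to -0.24 without replicate 2 and to -0.13 with the acinar level in the model. S100b is also made by adipocytes, whose list of 15 genes had a median difference of -0.06 in HFD against LFD. The summed linear level of the adipocyte list was 5489, 4537 and 4529 in LFD and 4464, 4199 and 4062 in HFD mice, and all 15 genes were measured, with Lpl the most abundant. The part of adipocytes in the S100b values was not tested.

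Cdh19 lies on chr1:110888326-110977584 (GRCm38, minus strand, Gencode M21). Its rlog values were 3.93, 4.26 and 3.79 in LFD, 3.23, 3.01 and 2.70 in HFD, and 3.22 and 4.52 in ob/ob mice. Every HFD mouse lay below every LFD mouse, whereas ob/ob replicate 1 lay within the range of the HFD mice and replicate 2 above all LFD mice. The difference was -1.01 in HFD against LFD (SE 0.37, adjusted p = 0.213) and -0.12 in ob/ob against LFD (SE 0.41, adjusted p = 0.882). The latter turned to 0.53 without ob/ob replicate 1 and was -0.77 without replicate 2. S100b and Cdh19, both used as markers of the Schwann lineage, thus lay on opposite sides of the LFD mice in HFD, and their Pearson r over the 8 mice was -0.38 (Spearman rho -0.48). The 8 mice fall into 3 groups and differ in the levels of acinar genes, so r is a description.

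In HFD against LFD, S100b and Ncam1 lay above without overlap, which holds for 12.9% of all genes, and Tnr and Cdh19 lay below without overlap, which holds for 12.3%. At an unadjusted p under 0.05, S100b was higher and Cdh19 lower, against 11.5% and 8.35% of all genes. In ob/ob against LFD, Tnr, Ngfr and Ncam1 lay above without overlap, against 24.1% of all genes, and none of the 6 genes lay below, against 21.8%. After median centring Ngfr overlapped, so that 2 genes lay above, against 20.2%, and 1 lay below, against 27.0%. Of the 5 genes other than Tnr, Ncam1 was higher at an unadjusted p under 0.05 in ob/ob against LFD, against 11.6% of all genes, and none was lower, against 7.18%. Between ob/ob and HFD mice, Tnr lay above without overlap, against 7.92% of all genes, and S100b below, against 5.42%. Tnr was chosen on the last comparison, so its place in these counts is no result.

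Among the 18 measured Schwann lineage genes, the median difference was 0.34 in HFD and 0.30 in ob/ob mice against LFD, beside 0.03 and 0.04 over all genes. In HFD mice, 4 genes were higher and 3 lower at an unadjusted p under 0.05, and ob/ob mice had 4 higher genes and none lower. The list holds S100b, Cdh19, Ngfr and Ncam1, so S100b and Cdh19 are part of the HFD counts and Ncam1 of the ob/ob count. Over all genes, 11.5% were higher and 8.35% lower in HFD and 11.6% and 7.18% in ob/ob mice, and the counts of the lists that follow stand beside these shares. The largest differences in HFD belonged to Ptprz1, a receptor phosphatase of glial precursors, with 1.70 (SE 0.52, adjusted p = 0.190), and to Ncam1. Zeb2, a transcription factor needed for Schwann cell maturation, differed by 0.94 in HFD (SE 0.27, adjusted p = 0.181) and 1.30 in ob/ob mice (SE 0.30, adjusted p = 0.168). In the other direction, Mia, a small secreted protein of melanocytes and cartilage, differed by -1.46 in HFD (SE 0.66, adjusted p = 0.264), and Cryab, a small heat shock protein of glia, muscle and lens, by -0.82 (SE 0.30, adjusted p = 0.213). Mia was not among the genes with an unadjusted p under 0.05, and none of these genes passed the adjustment.

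**Figure D2:**
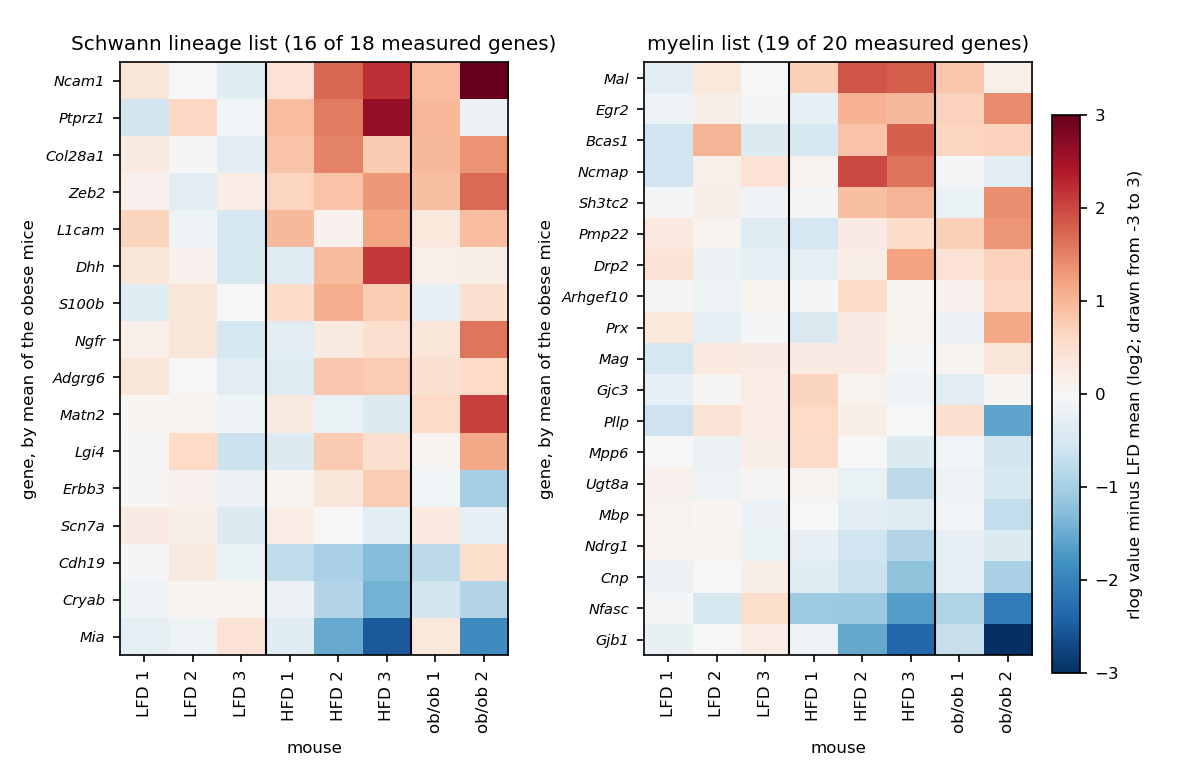
Difference of the rlog value from the LFD mean (colour, log2, drawn from -3 to 3) for the genes of the Schwann lineage and myelin lists that are reported here (rows, ordered by the mean of the obese mice) in each mouse (columns). Neither list moves as a block: Ncam1 and Mal are higher and Mia and Gjb1 are lower in HFD replicates 2 and 3.

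Ngfr lies on chr11:95568818-95587735 (GRCm38, minus strand, Gencode M21). Its rlog values were 3.31, 3.51 and 2.63 in LFD, 2.83, 3.43 and 3.66 in HFD, and 3.52 and 4.77 in ob/ob mice. The ob/ob mice lay above the LFD mice, but replicate 1 only just, with 3.52 beside 3.51 in LFD replicate 2, and the high value was that of ob/ob replicate 2. The difference was 0.16 in HFD (SE 0.41, adjusted p = 0.851) and 0.99 in ob/ob mice against LFD (SE 0.46, adjusted p = 0.281). The latter was 1.62 without ob/ob replicate 1 and 0.37 without replicate 2, and with the acinar level in the model the differences were -0.42 in HFD and 0.36 in ob/ob mice. Of 21 neurotrophic factors and receptors, 16 were measured, with a median difference of 0.47 in HFD and 0.60 in ob/ob mice. Of these, 1 was higher and 2 were lower in HFD at an unadjusted p under 0.05, and ob/ob mice had 3 higher and none lower. Gdnf, a ligand of the RET receptor made by Schwann cells, differed by 1.62 in ob/ob mice (SE 0.50, adjusted p = 0.204) and Bdnf, a ligand of TrkB and of Ngfr, by 1.30 (SE 0.50, adjusted p = 0.237). Gfra1, the co-receptor of Gdnf, differed by -1.48 in HFD (SE 0.28, adjusted p = 0.174) and by -0.18 in ob/ob mice (SE 0.31, adjusted p = 0.757). Sort1, which pairs with Ngfr to bind proneurotrophins, differed by -0.76 in HFD (SE 0.24, adjusted p = 0.193) and by -0.57 in ob/ob mice (SE 0.27, adjusted p = 0.282).

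Ncam1 lies on chr9:49502136-49798925 (GRCm38, minus strand, Gencode M21). Its rlog values were 6.29, 5.94 and 5.57 in LFD, 6.36, 7.65 and 8.13 in HFD, and 6.85 and 9.27 in ob/ob mice. All 5 obese mice lay above the LFD mice, though HFD replicate 1 did so by a small margin. The difference from LFD was 1.45 in HFD (SE 0.64, adjusted p = 0.253) and 2.13 in ob/ob mice (SE 0.71, adjusted p = 0.216). The mean of both obese groups differed from LFD by 1.79 (SE 0.57, adjusted p = 0.130). Without HFD replicate 1 the adjusted p in limma was 0.0273, in a fit where 3326 of all 15047 genes passed. Without ob/ob replicate 2 the difference of both obese groups from LFD was 1.18 and that of ob/ob against LFD was 0.92. The difference of ob/ob against LFD was 3.34 without ob/ob replicate 1. With the mean acinar level of each mouse in the model, Ncam1 differed from LFD by 0.32 in HFD, by 0.89 in ob/ob mice and by 0.60 in both obese groups (adjusted p = 0.493 for the last). Of 18 nerve adhesion genes, 15 were measured, Ncam1 and Cdh19 among them, with a median difference of 0.63 in HFD and 0.97 in ob/ob mice. HFD mice had 3 higher and 2 lower genes at an unadjusted p under 0.05, and ob/ob mice had 7 and 1. Chl1, an L1 family adhesion molecule of growing axons, differed by 1.30 in HFD (SE 0.37, adjusted p = 0.180) and 1.46 in ob/ob mice (SE 0.41, adjusted p = 0.200). Nrcam, an adhesion molecule of nodes of Ranvier, differed by 2.67 in ob/ob mice (SE 0.84, adjusted p = 0.209), with 8.42 in replicate 2. Nfasc, which joins glia and axons beside these nodes, differed by -1.28 in HFD (SE 0.36, adjusted p = 0.180) and -1.49 in ob/ob mice (SE 0.40, adjusted p = 0.191).

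Mbp had rlog values of 9.01, 8.97 and 8.71 in LFD, 8.87, 8.59 and 8.52 in HFD, and 8.81 and 8.16 in ob/ob mice. The groups overlapped in every comparison, and ob/ob replicate 2 was lowest. The difference was -0.23 in HFD (SE 0.21, adjusted p = 0.538) and -0.42 in ob/ob mice against LFD (SE 0.24, adjusted p = 0.344). The latter was -0.74 without ob/ob replicate 1, -0.091 without replicate 2 and -0.14 with the acinar level in the model. The locus also gives rise to Golli transcripts, which immune and other cells express, and the gene-level value cannot separate them from the transcripts of myelin. Among the 20 measured myelin genes the median difference was 0.12 in HFD and -0.12 in ob/ob mice, with 2 higher and 3 lower at an unadjusted p under 0.05 in HFD and 2 higher and 2 lower in ob/ob mice. Mal, a protein of myelin and of epithelial apical membranes, differed by 1.47 in HFD (SE 0.36, adjusted p = 0.179). Pmp22 and Egr2, a peripheral myelin protein and the transcription factor that drives myelination, differed by 1.01 (SE 0.36, adjusted p = 0.224) and 1.05 (SE 0.44, adjusted p = 0.256) in ob/ob mice. Gjb1, the connexin of myelinating Schwann cells that acinar cells express too, differed by -1.88 in ob/ob mice (SE 0.74, adjusted p = 0.244).

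Genes of the repair state of Schwann cells were followed with a list of 19, of which 14 were measured. The median difference was 0.78 in HFD and 0.72 in ob/ob mice. At an unadjusted p under 0.05, 3 were higher and none lower in each. Of the 18 fibroblast and stellate genes, 9 were higher in HFD and 13 in ob/ob mice by the same measure and none was lower, and their part in the repair genes was not tested. Ccl2, a chemokine that draws macrophages to injured nerve and that many stromal cells make, differed by 1.16 in HFD (SE 0.33, adjusted p = 0.180) and 1.87 in ob/ob mice (SE 0.37, adjusted p = 0.139). Jun, the transcription factor that governs the repair state, differed by 0.26 (SE 0.31, adjusted p = 0.648) and 0.20 (SE 0.34, adjusted p = 0.751), and Notch1 by -0.24 (SE 0.34, adjusted p = 0.702) and -0.01 (SE 0.38, adjusted p = 0.993).

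Neuregulins are the axonal signals that Schwann cells read through ErbB receptors, and 7 of 9 listed genes were measured. Nrg1 differed by 1.82 in HFD (SE 0.52, adjusted p = 0.180) and 1.98 in ob/ob mice (SE 0.58, adjusted p = 0.200), and its obese and LFD mice did not overlap. Erbb2, a signalling partner of Erbb3, differed by 0.97 in HFD (SE 0.21, adjusted p = 0.175) and by -0.08 in ob/ob mice (SE 0.24, adjusted p = 0.867). Erbb3 had rlog values of 8.64, 8.73 and 8.42 in LFD, 8.68, 8.94 and 9.35 in HFD, and 8.52 and 7.59 in ob/ob mice, and its groups overlapped with LFD. The median of the 7 genes was 0.40 in HFD and -0.08 in ob/ob mice, with 3 and 2 genes higher at an unadjusted p under 0.05 and none lower.

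The 13 measured genes of neurons and axons had a median difference of -0.16 in HFD and 0.46 in ob/ob mice. At an unadjusted p under 0.05, HFD mice had 2 higher and 3 lower genes, and ob/ob mice had 5 and 2. Tubb3, the neuronal tubulin, had rlog values of 3.74, 4.19 and 4.40 in LFD, 4.02, 5.07 and 5.31 in HFD, and 4.71 and 7.10 in ob/ob mice. Slc5a7, the choline transporter of cholinergic endings, differed by 1.10 in HFD (SE 0.29, adjusted p = 0.180) and 1.67 in ob/ob mice (SE 0.32, adjusted p = 0.139). Gal, the neuropeptide galanin, differed by -2.08 in HFD (SE 0.93, adjusted p = 0.257) and -3.02 in ob/ob mice (SE 1.04, adjusted p = 0.220).

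**Figure D3:**
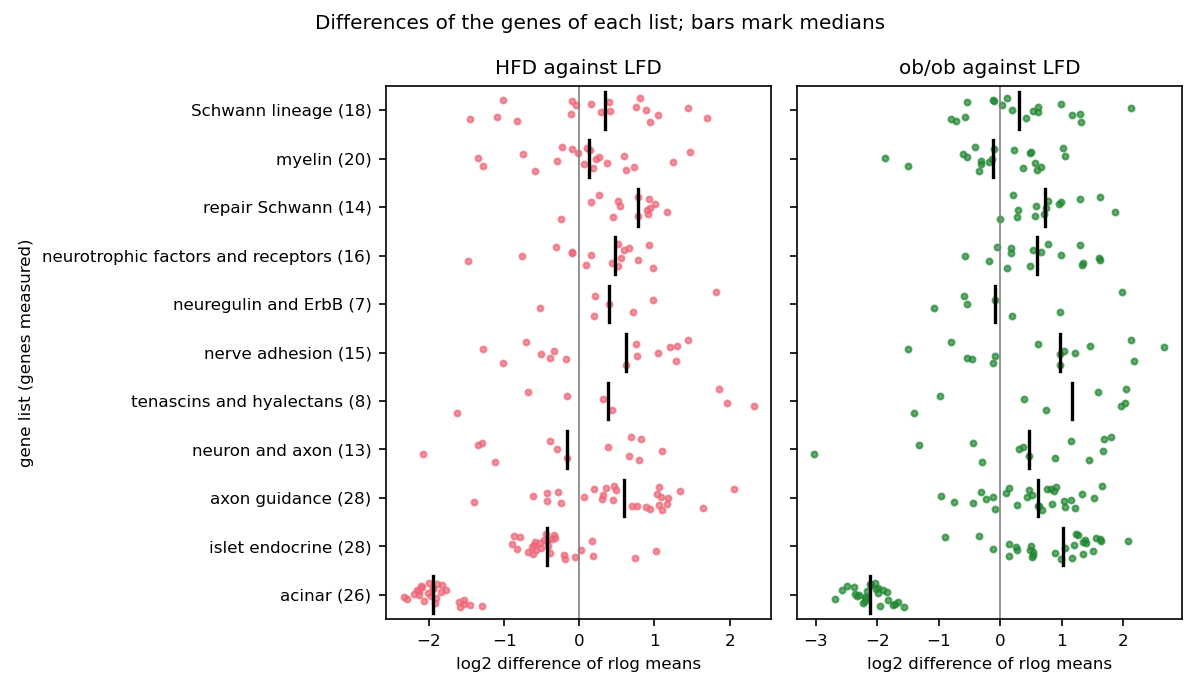
Difference of group means from LFD (x axis, log2 units of rlog values) for each measured gene (points) of 11 gene lists (y axis, number of genes measured) in HFD mice (left) and ob/ob mice (right). Bars are medians. The medians of the nerve lists run from -0.16 (neuron and axon) to 0.78 (repair Schwann) in HFD and from -0.12 (myelin) to 0.97 (nerve adhesion) in ob/ob mice, leaving aside the list of tenascins and hyalectans, which holds Tnr, beside -0.43 and 1.02 for the islet list and -1.95 and -2.11 for the acinar list.

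The summed levels of marker genes of other cell types differed between groups and between single mice. The 26 genes of acinar cells, led by Amy2a5, made up 58.7%, 59.5% and 61.2% of the summed linear values in LFD, 57.8%, 38.9% and 20.5% in HFD, and 55.2% and 23.1% in ob/ob mice. HFD replicate 1 and ob/ob replicate 1 thus had acinar shares near those of the LFD mice, and HFD replicate 3 and ob/ob replicate 2 had the lowest. By the mean rlog value of the acinar list, ob/ob replicate 1 with 16.81 lay below the LFD mice, at 17.23, 17.38 and 17.69. Between ob/ob and LFD mice, 23 of the 26 acinar genes lay below without overlap, beside 21.8% of all genes. The summed linear level of 18 fibroblast and stellate genes, led by Col3a1, was 19261, 18718 and 15622 in LFD, 24390, 39739 and 57104 in HFD, and 36518 and 75242 in ob/ob mice. The 28 islet endocrine genes, led by Ins2, summed to 11680, 20843 and 10816 in LFD, 13715, 9625 and 8399 in HFD, and 46023 and 21966 in ob/ob mice. All genes of these 3 lists were measured. In ob/ob against LFD, 13 of the 28 islet genes were higher at an unadjusted p under 0.05 and none lower, beside 11.6% and 7.18% of all genes, and 17 lay above without overlap, beside 24.1%. Their part in the values of the nerve-associated genes was not tested.

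Tnr was chosen for its difference between ob/ob and HFD mice, a contrast in which the islet list had a median difference of 1.19, so its likeness to other genes over the same mice is a description that the choice itself favours. Over the 8 mice, Tnr had a Pearson r of 0.93 (Spearman rho 0.88) with the mean rlog value of the islet list, and of 0.84 once the 2 mice with the most extreme islet values were left out. With the neuron and axon list, its r was 0.77 (rho 0.71), and 0.74 without the 2 most extreme mice, and with the acinar list it was -0.11. LFD replicate 2 and ob/ob replicate 2 had mean islet values of 6.85 and 6.90, beside Tnr values of 4.58 and 5.48. Ins1 differed by 1.24 (SE 0.38, adjusted p = 0.208) and Chga by 1.38 (SE 0.37, adjusted p = 0.192) in ob/ob against LFD, and Gcg by -0.35 (SE 0.51, adjusted p = 0.706). The genes nearest to Tnr by Pearson r over the 8 mice were Asic1 (r = 0.973), a proton-gated ion channel, Spock2 (r = 0.958), a proteoglycan of the extracellular matrix, and Map3k15 (r = 0.957), and 34 of 15046 genes had an r of at least 0.9. All of these correlations are over the same 8 mice of 3 groups, which also differ in acinar and islet levels.

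Ncam1 ran opposite to the acinar genes, with r = -0.94 (rho -0.90) to the mean of the acinar list. It followed the stromal genes, with r = 0.96 (rho 1.00) to the mean of the fibroblast list. Without the 2 most extreme mice, these were -0.94 and 0.96. As many as 921 of 15046 genes had an r of at least 0.9 with Ncam1, led by Stx2 (0.993), Agpat4 (0.991) and Wwtr1 (0.990). Ngfr had an r of -0.76 with the acinar list, which was -0.55 without the 2 most extreme mice, and Mbp had 0.84 and 0.63. The order of Mbp over the mice was close to the reverse of that of Ncam1 (r = -0.88, rho -0.74), and that of Ngfr was similar to it (r = 0.86, rho 0.79). The genes nearest to Ngfr were Ewsr1 (0.988), Cdk2ap1 (0.985) and Thbs3 (0.984), with 208 genes at an r of at least 0.9, and those nearest to Mbp were Syn3 (0.980), Shroom2 (0.976) and Igsf11 (0.974), with 171 genes.

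S100b had an r of -0.56 with the acinar list and -0.49 with the islet list, which were -0.58 and -0.35 without the 2 most extreme mice, and it had 0.70 with the immune and 0.50 with the duct list, which were 0.55 and 0.75 without them. Cdh19 had an r of 0.18 with the acinar, 0.33 with the islet and -0.24 with the fibroblast list, which became 0.62, 0.80 and -0.92 without the 2 most extreme mice of each list, so its values rest on those mice. Cdh19 had an r of -0.86 (rho -0.83) with the mean of 14 genes of duct epithelium, and of -0.66 without the 2 most extreme mice. The nearest genes were Aspa (0.963), Hsp90aa1 (0.949) and Mrps25 (0.946) for S100b, and Zfp317 (0.953), Snx17 (0.947) and Gmps (0.941) for Cdh19, with 30 and 24 genes at an r of at least 0.9. None of the 3 nearest genes of any of the 6 genes was another of the 6.

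**Figure D4:**
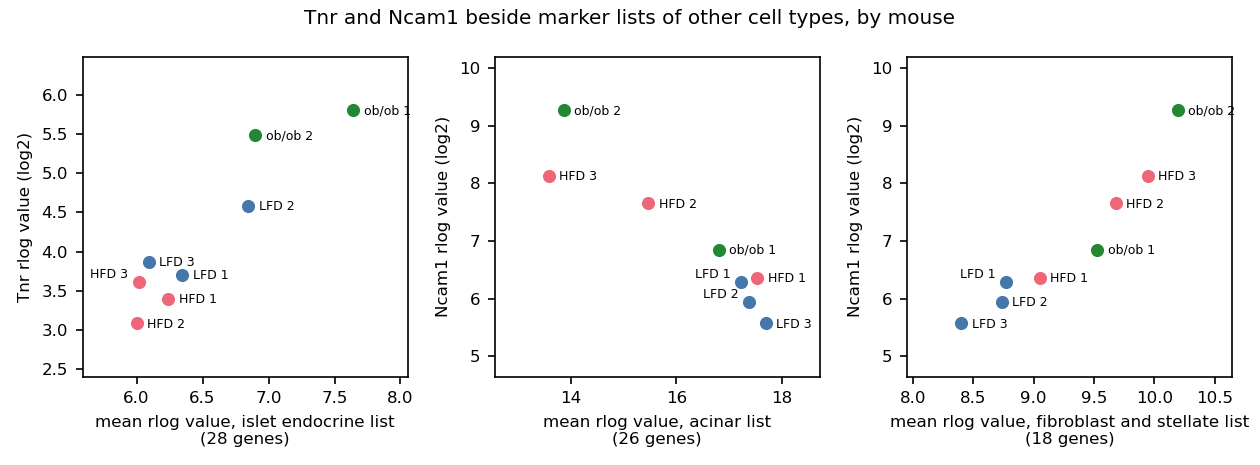
rlog value of Tnr against the mean rlog value of the islet list (left), and of Ncam1 against the acinar list (middle) and the fibroblast and stellate list (right), all on the log2 scale. Each point is 1 mouse. Tnr is highest in the mice with the highest islet values, and Ncam1 is highest in ob/ob replicate 2 and HFD replicate 3, the mice with the lowest acinar values.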

How the data were processed

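RNA-Seq was analysed from the pancreas of 8 male mice, grouped by the sample labels. The authors quantified transcripts of Gencode M18 (GRCm38.p6) with Salmon 0.11.3, summarized them per gene with tximport, and deposited log2 values from the rlog function of DESeq2 1.22.2. The filter behind the 15047 symbols is not given in the sources used here. Counts were not used, so depth is unknown. Salmon shares reads between similar transcripts, and strandedness is not given.

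Differences were fitted with limma 3.58.1 (R 4.3.3) on all genes and 8 mice, with a mean per group and a variance trend, and p-values were adjusted by Benjamini-Hochberg. Each SE is from this fit, which shares 1 spread over the 3 groups and moderates it by the trend over all genes. The groups can differ in spread, as for Ncam1, with an SD of 0.36 in LFD and 1.71 in ob/ob mice. The step was tested on simulated data. The members and 17 gene lists were chosen with earlier results of these data known, the lists from general knowledge. Named genes are the members, the 2 largest and 2 smallest differences of each list, the 3 nearest genes of each member, the most abundant gene of each marker list, and fixed markers. H19 and Rnu3b1 were added for their rank. Some genes the rule names are not reported here, though they are counted in their lists. Linear values are 2 to the power of the rlog value. In each mouse, Ddx3y and Xist matched the male label. Alternatives were no trend, only the compared groups, a mean rlog value of at least 5, median centring, quantile normalization, an acinar covariate, a replicate block and leaving out each mouse.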

Additional observations from a re-analysis of the deposited data

Results flagged for a closer look

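Tnr was marked because every HFD mouse lay below and every ob/ob mouse above the LFD mean. The difference between the ob/ob and HFD means was 2.27. The difference between these effects was not tested, since the same contrast chose the gene. Of all genes, 208 (1.38%) moved in this way, 126 (0.837%) in the other, and 334 (2.22%) in either.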

How the results depend on the processing

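Of 338 differences of the 6 genes under alternative settings, 325 kept their sign and 13 turned. Without the variance trend, after median centring and after quantile normalization, 0 genes had an adjusted p under 0.05 in limma in any of the 4 comparisons, with 609 to 3932 at an unadjusted p under 0.05. With only the compared groups in the fit, 1 gene passed in HFD against LFD and 38 in ob/ob against LFD. With the acinar covariate, 1 gene passed in ob/ob against LFD, 1 in ob/ob against HFD and 1 in obese against LFD. Leaving out each mouse in turn gave 0 to 2812 genes in HFD against LFD, 0 to 89 in ob/ob against LFD, 0 to 1 in ob/ob against HFD and 0 to 3326 in obese against LFD. The highest counts in the 3 comparisons with LFD were those without HFD replicate 1. The acinar share of this mouse was near that of LFD, at 57.8%. That of ob/ob replicate 1 was 55.2%, though its mean acinar rlog value lay below those of the LFD mice. The part of the acinar share in these counts was not tested. Where 1 ob/ob mouse was left out, the other was taken to vary like the other groups. The replicate numbers did not pair the mice, since 4 of 7 pairs with the same number had an r over 0.1 (-0.28 to 0.59) and 3 mice correlated best with their own number. With the replicate block, 0 genes passed in all 4 comparisons, and 3255, 3243, 467 and 4157 had an unadjusted p under 0.05.

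Among the 5 genes other than Tnr, Ncam1 alone passed in obese against LFD without HFD replicate 1, where 3326 of all 15047 genes passed. None of the 5 passed when another LFD or HFD mouse was left out. The difference of Ncam1 was 2.04 without HFD replicate 1 and 2.39 without ob/ob replicate 1. With a minimum of 5 for the mean rlog value, which leaves Mbp and Ncam1, 1 lay above and 0 below without overlap in HFD against LFD, 1 lay above in ob/ob against LFD, and 0 lay above and 0 below in ob/ob against HFD, beside 12.8%, 13.9%, 23.6%, 6.79% and 4.94% of all such genes. After median centring, 2 genes lay above and 1 lay below in ob/ob against LFD, beside 20.2% and 27.0% of all genes, and Ngfr no longer lay above. After quantile normalization, 2 lay above and 0 below in this comparison, beside 20.9% and 23.8%. When each mouse was left out, 3 to 5 genes lay above and 0 to 1 below in ob/ob against LFD, and 1 to 4 lay above and 1 to 2 below in ob/ob against HFD, and 5 and 4 lay above without ob/ob replicate 1, where the shares of all genes were 41.2% and 29.4%. Genes below took 25.4% to 34.8% of all genes in ob/ob against LFD and 9.64% to 20.4% in ob/ob against HFD over these leave-outs. When each mouse was left out, the number of genes at an r of at least 0.9 ran from 28 to 71 for Tnr, from 22 to 133 for S100b, from 121 to 459 for Ngfr, from 27 to 356 for Cdh19, from 114 to 674 for Mbp and from 850 to 1207 for Ncam1. The highest were without HFD replicate 2, ob/ob replicate 1, LFD replicate 2, ob/ob replicate 2, LFD replicate 3 and ob/ob replicate 1, and the lowest for Ngfr and Mbp were without ob/ob replicate 2. After median centring the number was 15 for S100b, 128 for Ngfr and 477 for Mbp.

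The acinar covariate turned the difference of Ngfr to -0.42 and that of Mbp to 0.012 in HFD against LFD, that of S100b to -0.13 in ob/ob against LFD, and that of Ngfr to -0.028 in obese against LFD. It also lowered Ncam1 from 1.45 to 0.32 in HFD, from 2.13 to 0.89 in ob/ob and from 1.79 to 0.60 in obese against LFD, and Ngfr from 0.99 to 0.36 in ob/ob against LFD. Quantile normalization turned S100b to -0.14 in ob/ob against LFD. When each mouse was left out, the difference ranged from -0.10 to 0.39 for Ngfr in HFD against LFD, from -0.24 to 0.47 for S100b and from -0.77 to 0.53 for Cdh19 in ob/ob against LFD, and from -0.51 to 0.14 for Mbp and from -0.53 to 1.89 for Ncam1 in ob/ob against HFD. The cause of these changes was not tested.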

Other observations

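Axon guidance genes, the secreted cues and receptors that steer growing axons and that epithelia and stroma also use, were measured for 28 of 30 listed genes. Their median difference from LFD was 0.59 in HFD and 0.62 in ob/ob mice. At an unadjusted p under 0.05 in limma, HFD mice had 6 higher and 2 lower genes, ob/ob mice had 5 and 2, and no gene passed the adjustment. Slit2, a repellent ligand of ROBO receptors, differed by 1.19 in HFD (SE 0.30, adjusted p = 0.179) and 1.51 in ob/ob mice (SE 0.33, adjusted p = 0.157). Sema3a, a repellent of sensory and sympathetic axons, differed by 0.46 in HFD (SE 0.51, adjusted p = 0.618) and 1.65 in ob/ob mice (SE 0.57, adjusted p = 0.221). Ntn1, an attractant of growing axons, differed by -1.40 in HFD (SE 0.52, adjusted p = 0.215) and -0.75 in ob/ob mice (SE 0.58, adjusted p = 0.475).

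Lists of related cell types were also read. Of 10 melanocyte genes, a lineage that shares the neural crest with Schwann cells, 5 were measured, with a median difference of -0.23 in HFD and 0.00 in ob/ob mice. Of 13 genes of oligodendrocytes and astrocytes, 6 were measured, and their median was -0.03 in HFD and -0.89 in ob/ob mice. The 13 measured immune genes, led by Lyz2, had medians of 0.95 and 1.34, and the 14 duct genes, led by Tff2, had medians of 0.93 and -0.08. The 15 adipocyte genes had a median of -0.05 in ob/ob mice.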
